A study of Homo sapiens with 8 samples.

Results

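The genes described here are 9 early response genes. IER2, IER3, IER5 and IER5L share the name immediate early response (IER), which does not make all of them related proteins. ZFP36, ZFP36L1 and ZFP36L2 belong to the ZFP36 family of mRNA-binding proteins, and ARC and PHLDA1 are single genes. All 9 were taken as listed symbols, and each was matched to a probe through the transcript accession in the scanner files. Thus 9 of the 19056 genes matched on the array are members. The array carried 12 probes for them, with a second probe for IER3, IER5L and ZFP36L1. The RNA came from A549 cells, an established human lung cancer cell line, in 2 series of 4 arrays each. The first series held a vehicle control and cells treated with EEDS, the ethanol extract of the seeds of Descurainia sophia, at 1.25, 5 and 20 μg/mL. The second held its own vehicle control and cells treated with helveticoside, a cardiac glycoside, at 3.75, 15 and 60 nM. Each array was hybridised with RNA pooled from 3 cultures of this single line, and each dose had 1 array. A single dose therefore has no replicate error, and no p-value is given for it. The methods give 24 h of treatment for the arrays, and the labels name 48 h in a protocol that describes the viability assay. Because the samples are bulk RNA, fewer cells of a kind and less RNA per cell cannot be told apart.

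The immediate early response genes are switched on within minutes to hours of a growth factor, a stress or an inflammatory signal, mostly without the need for new protein. ZFP36 proteins are zinc finger proteins that bind AU-rich elements in the tail of short-lived mRNAs and bring in the CCR4-NOT complex, which shortens the poly(A) tail and speeds decay. They thereby limit many of the transcripts that the early response raises. Cardiac glycosides inhibit the sodium pump (Na+/K+-ATPase), which raises sodium inside the cell.

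All 8 arrays were of similar quality. The median signal of a probe was between 182 and 214 units on the EEDS arrays and between 223 and 278 on the helveticoside arrays, against a local background of 27 to 34. No spot was saturated. The scanner software called 63.3% to 64.9% of the probes well above background on the EEDS arrays, and 54.5% to 59.5% on the helveticoside arrays. Such a probe is clearly brighter than the surface around the spot. All 6 epithelial markers of the line (KRT8, KRT18, KRT19, EPCAM, ALDH1A1 and AKR1B10) were well above background on all 8 arrays. Of 9 markers of leukocytes, endothelium and fibroblasts, PTPRC, CDH5 and COL1A1 were also well above background on all 8. Their part in the results was not tested.

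The sequence upstream of the start was looked up for the members because IER5 and IER5L, which are related proteins, moved in opposite directions on the brighter probe of IER5L. The RefSeq promoter table (build GRCh38.p14) matched 6 of the 9 members with 7 windows, and IER3, ARC and ZFP36L2 were not matched. The windows of IER5 (chr1:181088450-181088699, plus strand), IER5L (chr9:129178262-129178511, minus strand) and 1 of the windows of ZFP36L1 (chr14:68793417-68793666, minus strand) are shown, each with the 250 bases before the start, 5′ to 3′. Capitals mark the unit of a heat shock element (GAANNTTC), a CCAAT box on either strand (CCAAT, which reads ATTGG on the other strand) and the cyclic AMP response element (TGACGTCA).
IER5: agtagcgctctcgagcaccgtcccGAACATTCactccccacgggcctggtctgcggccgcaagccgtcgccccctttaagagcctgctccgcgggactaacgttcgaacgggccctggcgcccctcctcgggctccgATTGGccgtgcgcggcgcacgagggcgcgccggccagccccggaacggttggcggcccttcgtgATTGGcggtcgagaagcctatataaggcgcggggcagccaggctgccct
IER5L: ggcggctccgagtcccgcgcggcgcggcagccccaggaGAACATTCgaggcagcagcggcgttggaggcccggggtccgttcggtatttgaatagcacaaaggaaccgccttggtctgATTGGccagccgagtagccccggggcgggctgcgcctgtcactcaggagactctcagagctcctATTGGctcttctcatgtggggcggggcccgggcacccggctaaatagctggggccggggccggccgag
ZFP36L1: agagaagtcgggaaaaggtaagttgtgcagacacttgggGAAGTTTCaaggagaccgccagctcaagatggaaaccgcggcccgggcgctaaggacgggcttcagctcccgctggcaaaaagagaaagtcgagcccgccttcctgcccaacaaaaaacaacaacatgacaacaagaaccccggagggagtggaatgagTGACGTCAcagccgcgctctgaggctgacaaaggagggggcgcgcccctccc

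IER5 and IER5L held the same letters, GAACATTC, at -226 and -212 from the start respectively, and each held ATTGG at 2 places nearer to it (-113 and -49 in IER5, -132 and -68 in IER5L). On either strand, the heat shock unit was found in 5.78% of the 35116 windows of the same length in the table, the CCAAT box in 32% and the full cyclic AMP response element in 1.65%. That last element lay at -52 in the ZFP36L1 window shown. Its first 5 letters, TGACG, a shorter motif that overlaps the full element, were found in 21.2% of all windows and in those of IER2 and both of ZFP36L1. None of the 7 windows held the letters of an AP-1 site (TGANTCA, in 6.57% of all windows), a TATA box (TATAAA, 10.7%), the early growth response site (GCGGGGGCG, 4.72%) or the CArG box (1.16%). Only the exact letters were searched, so other spellings of a site, such as TATATAAG near the end of the IER5 window, were not counted. A match of letters is a description of the window only.

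At the top dose of both agents, IER2, IER3, IER5, ARC, PHLDA1, ZFP36 and ZFP36L1 were higher than vehicle by more than 2-fold on the measured ratio. IER5L was lower by more than 2-fold in both on its brighter probe, but not on its dimmer one (log2 ratios of -0.55 and -0.24). ZFP36L2 was within 2-fold throughout. The counts that follow use the brightest probe of each gene. With EEDS at 20 μg/mL, 7 of 9 members were more than 2-fold higher, against 13.3% of all genes, and 1 of 9 was more than 2-fold lower, against 14.5%. With helveticoside at 60 nM the counts were the same, against 10.8% and 12.8% of all genes. The median log2 ratio of the members was 1.99 at the top EEDS dose and 1.57 at the top helveticoside dose, where the medians of all genes were 0.02 and -0.004. ARC was not well above background in either vehicle, so that its ratio is only a lower bound. With ARC at that bound, the median stayed at 1.99 with EEDS and was 1.16 with helveticoside, and 6 members rather than 7 were more than 2-fold higher at 60 nM. At the lowest doses only PHLDA1 passed 2-fold, and only with EEDS: 1 of 9 members at 1.25 μg/mL, against 4.22% of genes, and 0 of 9 at 3.75 nM, against 3.38%.

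**Figure D1:**
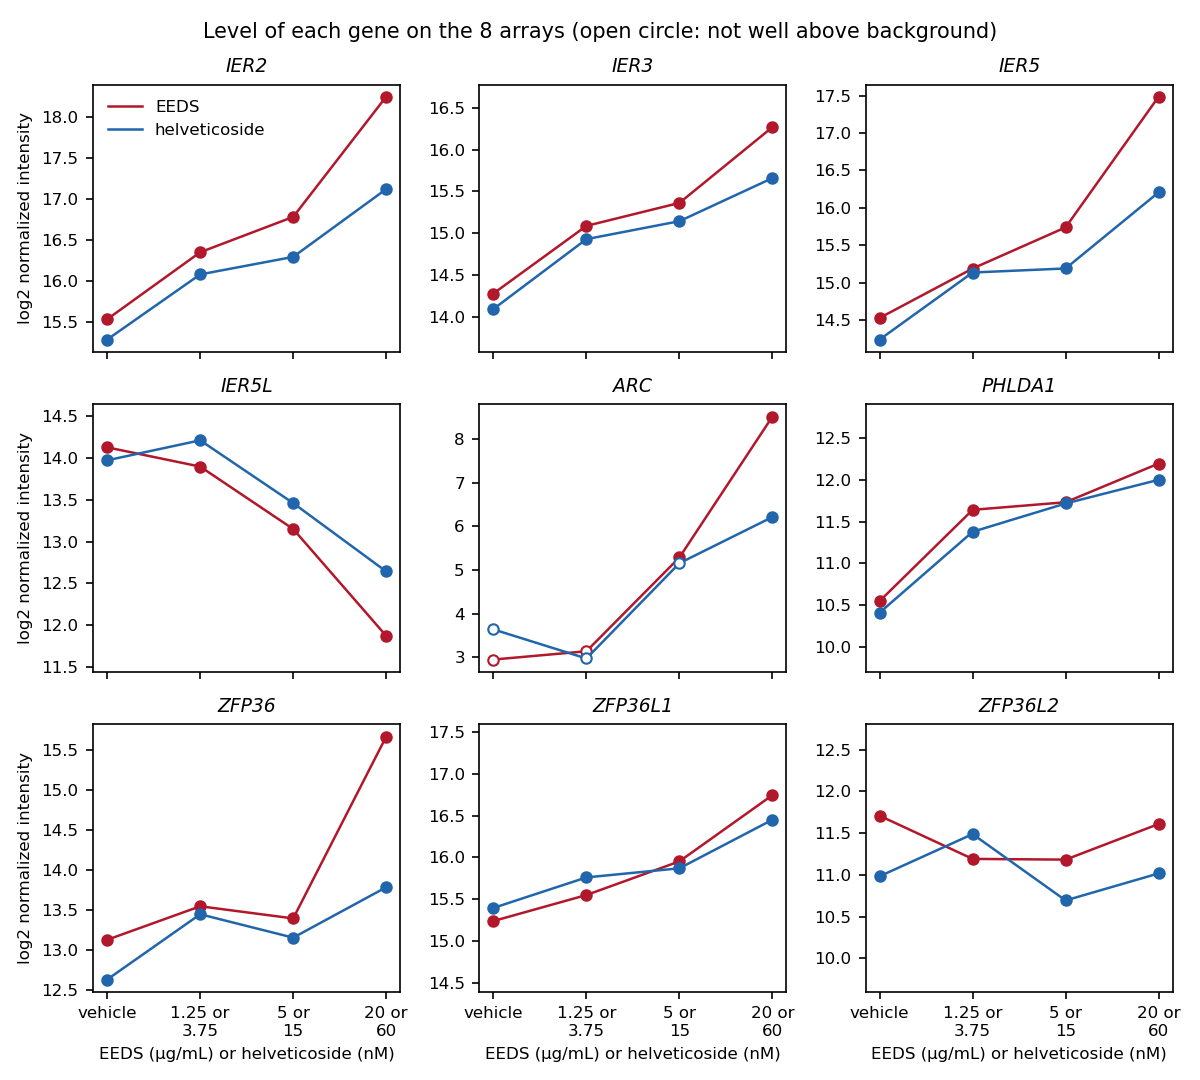
Level of each member on the 8 arrays as log2 normalized intensity, against the dose of EEDS in μg/mL (red) or helveticoside in nM (blue). Each point is 1 array of pooled RNA, with no error bar, and open circles were not well above background; 7 genes end above their vehicle in both series, IER5L ends below it, and ZFP36L2 shows no ordered course.

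**Figure D2:**
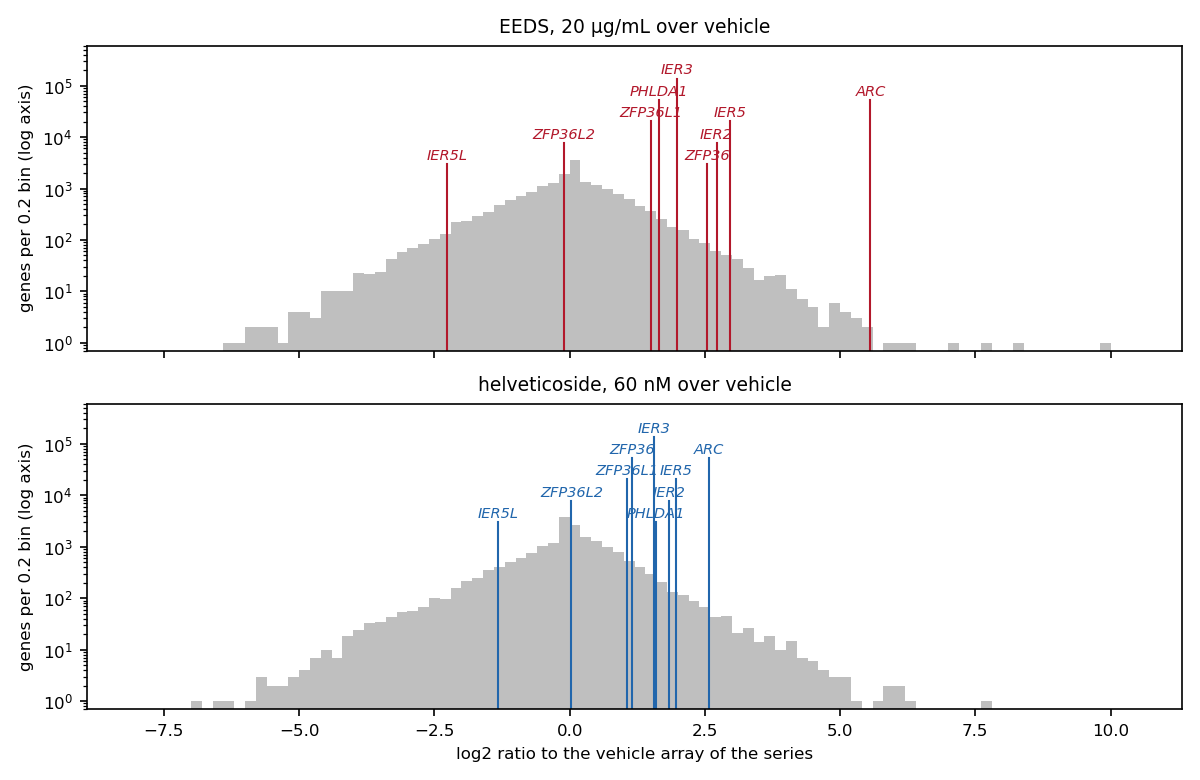
Histogram of the log2 ratio of all genes kept (19046 for EEDS, 19056 for helveticoside) at the top dose over the vehicle of the same series, with the count per bin on a log axis. The coloured lines mark the 9 members; IER5L lies in the lower tail, ZFP36L2 near 0 and the others to the right of 0 in both plots, with ARC drawn at its measured ratio although its vehicle was not well above background.

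The error of a course over the doses came from the scatter about straight lines. A slope on the dose step (vehicle, lowest, middle and top dose) was fitted to each series over all 8 arrays with limma, and p-values were adjusted by Benjamini-Hochberg over all genes. The slope is the change in log2 intensity per dose step. With EEDS, 6 of 9 members rose, where 7.27% of all genes did, and 1 fell, where 7.86% did. With helveticoside, 4 of 9 rose, where 5.46% did, and none fell, where 5.79% did. The members with a rising EEDS trend were IER2, IER3, IER5, ARC, PHLDA1 and ZFP36L1, and the 4 with a rising helveticoside trend were IER2, IER3, PHLDA1 and ZFP36L1. ARC was well above background on only 3 of the 8 arrays, so its place among the 6 rests partly on levels that were not. These calls depended on the arrays used, and with 1 array left out fewer of all genes passed as well. The EEDS count was 0 without the EEDS vehicle or the 20 μg/mL array and 4 without the 15 or the 60 nM array. The helveticoside count was 0 without the EEDS 1.25 μg/mL array or without the helveticoside vehicle, 15 nM or 60 nM array, 1 without the 3.75 nM array and 2 without the EEDS 5 μg/mL array. In those fits with a count of 0, between 3 and 7 members were still under an unadjusted p of 0.05 in limma. Of all genes, 0 passed with EEDS without the EEDS vehicle or the 20 μg/mL array. With helveticoside, 0 passed without the 15 or the 60 nM array, and 675 without the EEDS 1.25 μg/mL array. Leaving out an EEDS array does not change the helveticoside slopes, so there only the error and the adjustment could remove a call. With any single array left out, the sign of the slope stayed the same for each member but ZFP36L2.

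**Figure D3:**
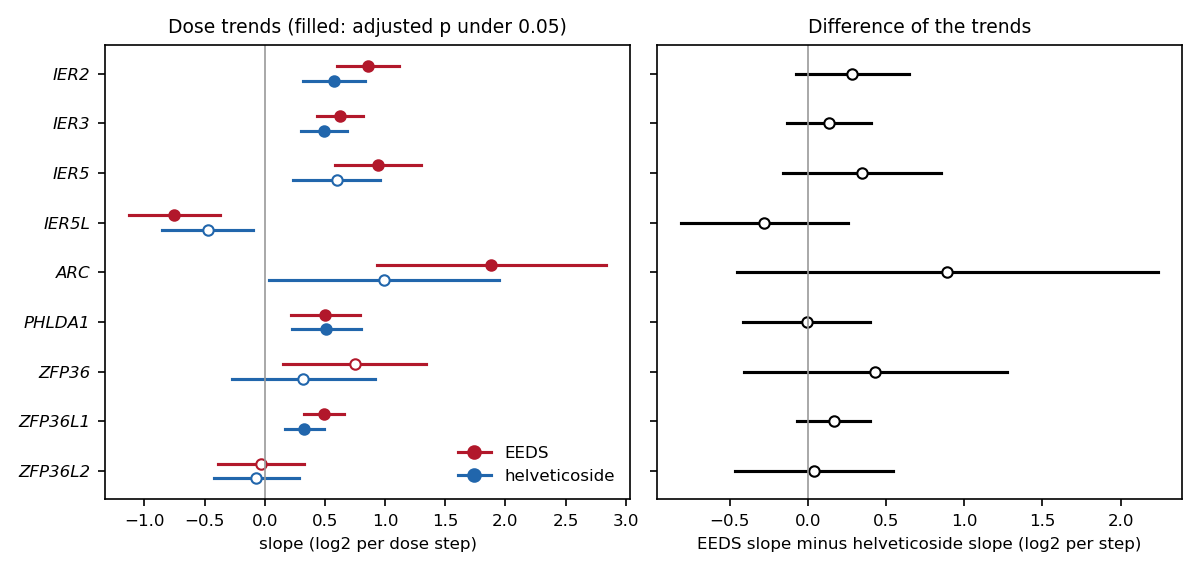
Left, the slope of each member in log2 per dose step with its 95% interval from limma, for EEDS (red) and helveticoside (blue), filled where the adjusted p was under 0.05. Right, the EEDS slope minus the helveticoside slope with its 95% interval, which includes 0 for all 9 members.

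IER2, a nuclear protein of the early response that has been tied to transcription and cell motility, rose with both agents. Its log2 level was 15.54 in the EEDS vehicle and 16.35, 16.78 and 18.25 at the 3 EEDS doses. In the helveticoside series it was 15.29 in the vehicle and 16.08, 16.30 and 17.12 at the 3 doses. Each dose lay above the one before it in both series, and the top dose was 6.57-fold over vehicle with EEDS and 3.57-fold with helveticoside. The slope was 0.86 per step with EEDS (SE 0.10, limma adjusted p = 0.0144) and 0.57 with helveticoside (SE 0.10, adjusted p = 0.0306). With each of the 8 arrays left out in turn, the EEDS slope ran from 0.62 to 0.95, and its call was lost without the EEDS vehicle or top dose. The helveticoside slope ran from 0.50 to 0.60, and its call was lost without any of 6 arrays, the exceptions being the EEDS middle and top doses.

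IER5, a protein known to bring protein phosphatase 2A to the heat shock factor HSF1, had a course close to that of IER2. Its log2 levels were 14.53, 15.19, 15.74 and 17.49 from vehicle to the top EEDS dose. They were 14.24, 15.13, 15.19 and 16.21 from vehicle to the top helveticoside dose. The lowest and middle helveticoside doses differed by only 0.05, and the step from the middle to the top dose was the largest of the 3 in both series, at 1.75 with EEDS and 1.02 with helveticoside. At the top doses the level was 7.78-fold and 3.91-fold over vehicle. The EEDS slope was 0.94 (SE 0.14, limma adjusted p = 0.0192), with values of 0.61 to 1.15 when each array was left out and no call without the EEDS vehicle or top dose. The helveticoside slope of 0.60 (SE 0.14, adjusted p = 0.0559) missed the threshold. It passed in 6 of the 13 other settings of the processing, and also without the EEDS top dose.

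IER3, a glycoprotein known for its part in apoptosis and in ERK signalling, rose with both agents. Its log2 level was 14.28 in the EEDS vehicle and 15.09, 15.36 and 16.27 at the 3 doses, and 14.09 in the helveticoside vehicle and 14.93, 15.14 and 15.66 at the 3 doses. A large part of the difference was already there at the lowest dose, where the level was 1.75-fold over vehicle with EEDS and 1.79-fold with helveticoside. These are log2 ratios of 0.81 and 0.84, each from 1 array over 1 vehicle array. The top doses reached 3.98-fold and 2.97-fold. The slopes were 0.63 with EEDS (SE 0.08, limma adjusted p = 0.0144) and 0.49 with helveticoside (SE 0.08, adjusted p = 0.025). A second, dimmer probe gave slopes of 0.61 and 0.51, and both passed. Leaving out each array gave EEDS slopes of 0.54 to 0.65, with no call without the EEDS vehicle or top dose, and helveticoside slopes of 0.37 to 0.53, with no call without the EEDS lowest dose or the helveticoside vehicle, middle or top dose.

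IER5L, the relative of IER5, was the only member with a falling trend, and its 2 probes did not give the same size of change. The brighter probe, which stands for the gene, had log2 levels of 14.13, 13.90, 13.15 and 11.87 from vehicle to the top EEDS dose, and of 13.97, 14.21, 13.46 and 12.64 from vehicle to the top helveticoside dose. The level was thus 4.78-fold lower than vehicle at 20 μg/mL and 2.52-fold lower at 60 nM, while the lowest helveticoside dose was above its vehicle. The slope was -0.75 with EEDS (SE 0.15, limma adjusted p = 0.0322) and -0.47 with helveticoside (SE 0.15, adjusted p = 0.105). The dimmer probe was at 11.94, 11.89, 11.92 and 11.39 in the EEDS series and at 12.25, 12.45, 12.39 and 12.02 in the helveticoside series. Its ratio at the top dose was -0.55 with EEDS and -0.24 with helveticoside on the log2 scale, and its slopes of -0.16 (adjusted p = 0.248) and -0.08 (adjusted p = 0.662) did not pass. The mean of both probes gave an EEDS slope of -0.46, which was not called either. The EEDS call of the brighter probe was also lost without any of 5 arrays (the EEDS vehicle, lowest and top doses and the helveticoside middle and top doses), with slopes of -1.01 to -0.49. The top-dose ratios of IER5 and of the brighter IER5L probe thus had opposite signs under both agents. Those of the dimmer probe were also below 0, but their size was under 1.02. That is the log2 difference between the 2 vehicles that 95% of genes stayed under, and it includes any difference between the series. With 1 array per dose, the sign of the dimmer probe is not settled.

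**Figure D4:**
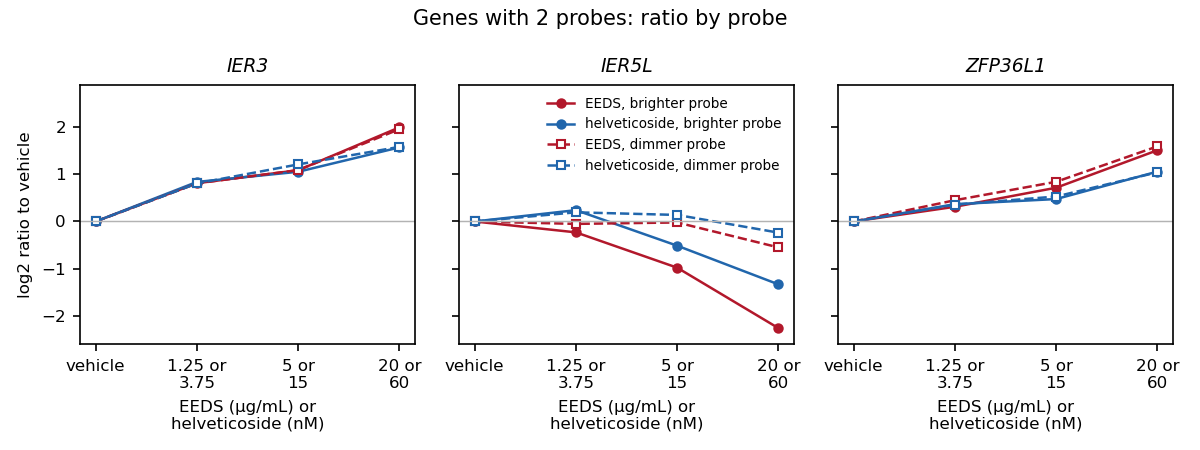
Log2 ratio to the vehicle of the series by dose for the 3 members with a pair of probes, with solid lines and filled symbols for the brighter probe and dashed lines and open symbols for the dimmer one. The probes of IER3 and of ZFP36L1 run together, while those of IER5L separate to -2.26 and -0.55 at the top EEDS dose.

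PHLDA1, a pleckstrin homology-like domain protein induced by growth factors and stress, rose with both agents, mostly at the first step. Its log2 levels were 10.55, 11.64, 11.73 and 12.20 from vehicle to the top EEDS dose, and 10.41, 11.38, 11.72 and 12.00 from vehicle to the top helveticoside dose. The first step was the largest in both series, at 1.09 with EEDS and 0.97 with helveticoside, and it was followed by steps of 0.09 to 0.46. With helveticoside, the first step was also the largest for IER3 (0.84) and for ZFP36 (0.82). All first steps of a series share 1 vehicle array. Of those named here, only the 1.09 was beyond the 1.02 between the vehicles. The level of PHLDA1 at the top dose was 3.13-fold and 3.01-fold over vehicle. Its slopes were 0.50 with EEDS (SE 0.12, limma adjusted p = 0.0427) and 0.51 with helveticoside (SE 0.12, adjusted p = 0.0488). Both calls were close to the threshold. The EEDS call was lost without any of 6 arrays, all but the EEDS lowest dose and the helveticoside vehicle, with slopes of 0.28 to 0.59. The helveticoside call was lost without any array but the EEDS vehicle, with slopes of 0.31 to 0.65.

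ARC, best known as the activity-regulated cytoskeleton protein of neurons and a target of serum response factor, was well above background on only 3 arrays, those of EEDS at 5 and 20 μg/mL and of helveticoside at 60 nM. Its log2 levels were 2.95, 3.14, 5.28 and 8.51 in the EEDS series and 3.64, 2.97, 5.15 and 6.21 in the helveticoside series. The 5 levels that were not well above background have no order among them. A bound was set from the lowest signal well above background on the vehicle array. By it, the level of ARC over vehicle was at least 1.66-fold with EEDS at 5 μg/mL and at least 15.5-fold with EEDS at 20 μg/mL. With helveticoside at 60 nM it was at least 1.58-fold. The EEDS trend passed (slope 1.88, SE 0.38, limma adjusted p = 0.0331) and that of helveticoside did not (slope 0.99, SE 0.38, adjusted p = 0.1555), but both slopes rest on levels that were not well above background. They were smaller under other handling of the background, at 0.84 and 0.30 on the signal as scanned and 0.89 and 0.30 after normexp correction, with the same calls. Without any of 5 arrays (the EEDS vehicle, lowest and top doses and the helveticoside middle and top doses) the EEDS call was lost, with slopes of 1.17 to 2.69.

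The 3 ZFP36 genes did not share 1 course. ZFP36, also called tristetraprolin, had log2 levels of 13.12, 13.54, 13.39 and 15.67 from vehicle to the top EEDS dose. In the helveticoside series they were 12.63, 13.44, 13.15 and 13.78. In both series the middle dose lay slightly below the lowest, and most of the EEDS difference came at the last step, of 2.28. The level was 5.85-fold over vehicle at 20 μg/mL and 2.23-fold at 60 nM. Neither trend passed. The slopes were 0.75 (SE 0.24, limma adjusted p = 0.091) and 0.32 (SE 0.24, adjusted p = 0.466). The EEDS slope did pass in 6 of the 13 other settings, among them with dose as a fraction of the top dose, and without the EEDS middle dose, and it was 0.13 without the EEDS top dose. The 60 nM level was less than 2-fold over the EEDS vehicle, which was 0.50 above the helveticoside vehicle for this gene on the log2 scale.

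ZFP36L1 rose with both agents by smaller steps. Its log2 levels were 15.24, 15.55, 15.95 and 16.75 from vehicle to the top EEDS dose, and 15.39, 15.76, 15.87 and 16.45 from vehicle to the top helveticoside dose. Each dose was above the one before it, and the top dose was 2.84-fold over vehicle with EEDS. At 60 nM of helveticoside the log2 ratio was 1.06. The slopes were 0.49 (SE 0.07, limma adjusted p = 0.0159) and 0.33 (SE 0.07, adjusted p = 0.0376), and the second probe gave 0.52 and 0.33, which both passed. With each array left out, the EEDS slope was 0.36 to 0.60 and its call was lost without the EEDS vehicle or top dose. The helveticoside slope was 0.24 to 0.35, and its call was lost without any of 6 arrays, the exceptions being the EEDS vehicle and top dose. This is the member whose window holds the full cyclic AMP response element printed above.

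ZFP36L2 showed no trend with either agent. Its levels on the log2 scale were 11.71, 11.19, 11.18 and 11.61 in the EEDS series and 10.98, 11.49, 10.69 and 11.02 in the helveticoside series. The lowest EEDS dose lay below its vehicle and the lowest helveticoside dose above it, by 0.52 and 0.50. The slopes were -0.03 (95% interval -0.39 to 0.33) and -0.07 (-0.43 to 0.29) per step, so that the intervals leave out slopes as large as those of IER2, with 0.86 and 0.57. The adjusted p from limma was 0.975 with EEDS and 0.858 with helveticoside. The probe was printed at 10 spots of each array, and the spots of an array differed by an SD of only 0.01 to 0.04 on the log2 scale. This spread of spots does not include the spread between arrays. The vehicles of the 2 series differed by 0.72, more than any dose differed from its own vehicle. The sign at 20 μg/mL was not settled, since the log2 ratio was -0.10 here and 0.12 after scaling each array to its 75th percentile.

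The pair of vehicle arrays gives a measure of the difference between untreated cells of separate series. Over 12390 genes well above background on both, the log2 difference had an SD of 0.50, and 95% of genes differed by less than 1.02. This comes from 1 pair of arrays and includes any difference between the series. It is therefore a yardstick and not the error of a ratio within a series. The 8 members measured on both differed by 0.14 to 0.72. At the top doses the log2 ratios of IER2, IER3, IER5, PHLDA1, ZFP36, ZFP36L1 and the brighter probe of IER5L were all beyond 1.02 in size, the smallest being the 1.06 of ZFP36L1 with helveticoside. At the lowest doses the 1.09 of PHLDA1 with EEDS was beyond it.

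EEDS and helveticoside were dosed in different units, so their levels are given side by side and only the slopes per dose step were compared. The EEDS slope was the larger in size for IER2, IER3, IER5, IER5L, ARC, ZFP36 and ZFP36L1, but no difference passed. That order turned for IER3 after scaling to the 75th percentile (0.637 with EEDS and 0.638 with helveticoside) and for IER5L without the helveticoside vehicle (-0.75 and -0.79). It also turned for ZFP36 without the EEDS top dose (0.13 and 0.32) or without the top dose of each series (0.13 and 0.26). For PHLDA1 the order differed between settings, with 0.50 and 0.51 here and 0.563 and 0.546 after that scaling. The difference of the slopes, EEDS minus helveticoside, was 0.29 for IER2 (95% interval -0.08 to 0.65), 0.13 for IER3 (-0.14 to 0.40) and 0.35 for IER5 (-0.16 to 0.85). For ZFP36L1 it was 0.16 (-0.07 to 0.40), and for ZFP36 0.43 (-0.41 to 1.27). The difference was -0.01 for PHLDA1 (-0.42 to 0.40), -0.28 for IER5L (-0.81 to 0.25) and 0.04 for ZFP36L2 (-0.47 to 0.54). That of ARC, 0.89 (-0.45 to 2.24), rests on levels that were not well above background. Over all genes, 0 passed the adjusted test in limma and 525 were under an unadjusted p of 0.05, of which 0 were members. The intervals are wide, and a difference that did not pass does not show that the agents act alike.

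The likeness of courses was measured as the root mean square difference of the 6 log2 ratios, over 11498 genes well above background on all 8 arrays. The ratios of a series share a vehicle array, so this is a description. IER2 and IER5 were the closest pair of members, at 0.14. Over all genes, DUSP6, a phosphatase that inactivates ERK, was as close to IER2 (0.14), and PHLDA2, a relative of PHLDA1, was closest to IER3 (0.10). The courses closest to IER5L were those of MRPS26 (0.16), NEURL1 and GALK1. LIX1L was closest to PHLDA1 (0.09) and TRIM11 to ZFP36L1 (0.09).

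Genes around the members were followed in lists, with the trend test of all genes. Both relatives of PHLDA1 rose with both agents: PHLDA2 with slopes of 0.62 and 0.46 (limma adjusted p = 0.0227 and 0.0476) and PHLDA3, a p53 target that restrains Akt, with 0.46 and 0.51 (adjusted p = 0.02 and 0.0221). Of 20 other early response genes, 12 rose and 0 fell with EEDS, where 7.27% of all genes rose, and 6 rose and 0 fell with helveticoside, where 5.46% rose. EGR1, a zinc finger transcription factor, had slopes of 3.27 (adjusted p = 0.0252) and 2.41 (adjusted p = 0.0559), and MAFF, a small MAF protein, of 1.71 and 1.47 (adjusted p = 0.0128 and 0.0164). The median slope of this list was 0.97 with EEDS and 0.78 with helveticoside, where the medians of all genes were 0.01 and -0.01. BTG2, DUSP1, FOS and MYC each stand in 2 of the lists. The counts of these lists have the same limits as those of the members, since without the EEDS vehicle or top dose 0 of all genes passed with EEDS, and without the helveticoside middle or top dose 0 passed with helveticoside.

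The partners of ZFP36 proteins in decay were followed in 3 lists, against 7.27% of all genes rising and 7.86% falling with EEDS, and 5.46% and 5.79% with helveticoside. Of 15 measured genes of the CCR4-NOT complex and its adaptors, 4 rose and 0 fell with EEDS, and 3 rose and 0 fell with helveticoside. The median slopes were 0.24 and 0.14. Those that rose with EEDS were the adaptors BTG1 (slope 0.84, limma adjusted p = 0.0167), BTG2 (1.16, adjusted p = 0.035) and TOB2 (0.33, adjusted p = 0.0347) and the deadenylase CNOT8 (0.38, adjusted p = 0.0247). With helveticoside BTG1, CNOT8 and CNOT3 (0.31, adjusted p = 0.0441) rose, CNOT3 being named after its values were seen. Among 10 other proteins that bind AU-rich elements or act on the same transcripts, 2 rose with EEDS, RC3H1 (roquin, slope 0.77) and PUM2 (0.43), and 1 with helveticoside, RC3H1 (0.65), which is near the share over all genes. The median slopes were 0.31 and 0.15. KHSRP, a decay factor, and HNRNPD had EEDS slopes of -0.06 and -0.21, which did not pass. Their helveticoside slopes were -0.06 and -0.40, and that of HNRNPD was close to the threshold (limma adjusted p = 0.0594). In the kinase route that phosphorylates ZFP36, 2 of 11 genes rose and 2 fell with each agent, and the median slopes were 0.08 and 0.07. MAP2K3 (slopes 0.95 and 0.73) and DUSP1 (0.91 and 0.87), the phosphatase that switches p38 off, rose, and MAP2K6 (-1.32 and -0.96) and MAPKAPK3 (-0.50 and -0.55) fell.

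Of 20 transcripts known to be bound by ZFP36 proteins, which include IER3 itself, 8 rose and 0 fell with EEDS, where 7.27% of all genes rose, and 7 rose and 0 fell with helveticoside, where 5.46% rose. The chemokine transcript CXCL8 had slopes of 1.82 and 2.01 (limma adjusted p = 0.0134 and 0.0164), BIRC3, an inhibitor of apoptosis, 1.38 and 1.17 (adjusted p = 0.0175 and 0.0279), and CXCL1 1.10 and 0.79 (adjusted p = 0.0213 and 0.049). The cytokine LIF had slopes of 0.97 and 0.79 (adjusted p = 0.0144 and 0.0229). CXCL8 was well above background on 7 of 8 arrays. PLAU, with slopes of 0.50 and 0.49, and MYC, with 0.27 and 0.18, did not pass. The median slope of the list was 0.70 with EEDS and 0.49 with helveticoside, where those of all genes were 0.01 and -0.01. The arrays measure the amount of a transcript and not its rate of decay.

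Of 10 measured genes for heat shock factors and for subunits and a target of protein phosphatase 2A, the partners of IER5, 2 rose with EEDS and 1 with helveticoside, and none fell. These counts are near the shares of all genes that rose (7.27% and 5.46%), and the median slopes were 0.13 and 0.12. The genes were HSF2 (EEDS slope 0.45, limma adjusted p = 0.0264) and the catalytic subunit PPP2CB (0.52 with EEDS and 0.48 with helveticoside, adjusted p = 0.0262 and 0.0365). HSF1 had slopes of -0.12 and 0.03, which did not pass. Of 10 genes for serum response factor, its cofactors and its cytoskeletal targets, 2 rose and 1 fell with EEDS and 1 rose and 1 fell with helveticoside, which is also near the shares over all genes. ELK3 rose with both agents (0.72 and 0.80, adjusted p = 0.0132 and 0.0164) and MRTFB fell with both (-0.41 and -0.47, adjusted p = 0.042 and 0.0373). ELK4 rose with EEDS (0.32, adjusted p = 0.0431). SRF itself, named after its values were seen, had slopes of 0.71 (adjusted p = 0.0648) and 0.84 (adjusted p = 0.0512). ACTB and ACTG1, the cytoplasmic actins, had EEDS slopes of -0.03 and 0.09, which did not pass.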

How the data were processed

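Total RNA of A549 cells was pooled from 3 cultures per condition, amplified, labelled with a single dye and hybridised to Agilent whole human genome arrays. The authors deposited, per array, the scanner software's intensity of each spot (median signal, local background and background-subtracted processed signal), with 0 or 1 calls for outlier, saturated and well-above-background spots, and a table of processed intensity values of the same arrays, which the values show to be quantile-normalized within each series. The software version and genome build are not given in the sources used here. The labels name Cy5, whereas the file headers name the signal columns as green.

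Here outlier spots were dropped, the remaining spots of each probe were averaged on the processed signal, and log2 values were taken after quantile normalization over all 8 arrays. Accessions were matched to RefSeq (GRCh38.p14), which named 24812 of 34105 probes and 19056 genes; the brightest probe stood for a gene. A gene was kept in a series where its median signal was at least 1.4 times the background on 1 array or more, and lower signals were set to the lowest detected signal of the array. All 9 members passed in both series. Trends were fitted with limma 3.58.1 (R 4.3.3; an intercept and a slope on the dose step for each series, eBayes with trend and robust estimation) over all genes, Benjamini-Hochberg adjusted, and called under an adjusted p of 0.05. The fit was also run on simulated data with straight courses and independent errors. Such data cannot show how it handles curved courses or errors shared by arrays. The number of arrays limits the precision, and p-values measure scatter about a line over 1 array per dose.

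The members and lists were chosen with earlier results of these data known. All 9 members are named; of each list, up to 4 genes called with the largest slopes and at most 2 not called with the highest mean level were eligible, and for each member the 3 genes with the most similar ratios. EGR1 and MAFF stand for their list. Alternatives were other background corrections, scalings, filters, probes, doses and thresholds, and each array left out in turn, the last and the use of dimmer probes having been added after the data were seen.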

Additional observations from a re-analysis of the deposited data

How the results depend on the processing

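The number of members with a trend changed with the arrays used and with the dose scale. With each array, or each dose of both series, left out, the EEDS count ranged from 0 to 7 and the helveticoside count from 0 to 4, and the difference of the trends stayed at 0. With only the 4 arrays of a series, limma called 0 members with EEDS and 0 with helveticoside, although 7 were under an unadjusted p of 0.05 in each. With dose as a fraction of the top dose, the helveticoside count was 0, with 6 members under an unadjusted p of 0.05. The cause was not tested. At a threshold of 3-fold in place of 2-fold, 4 members passed at the top helveticoside dose (IER2, IER5, PHLDA1 and ARC). ARC did so on a ratio whose lower bound was 1.58-fold. ZFP36L2 was the only member whose slope changed sign. Its EEDS slope was 0.0396 after scaling to the 75th percentile and 0.18 on the dose fraction. It was 0.0016 without the middle dose and ranged from -0.26 to 0.21 with arrays left out. Under the 75th percentile, the typical gene had a log2 ratio between -0.36 and 0.14 (median over genes, by array), and ratios so scaled are relative to that shift. With arrays left out, 113 slopes kept their sign and their side of the threshold, 80 lost the call, 2 gained it, and 3 changed sign. Across the settings other than leaving arrays out, 196 slopes kept both, 21 lost the call, 13 gained it, and 2 changed sign without a call. In several of these settings, such as those with no filter or no intensity trend, the slopes were those of the main fit. There only a call could change, so these counts do not measure how stable the slopes are. Signal over background limits ARC, which was well above background on 3 arrays. No paired analysis was possible because the labels carry no replicate numbers and each dose had 1 array.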
